A study of Rattus norvegicus with 33 samples.

Results

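The left lumbar spinal dorsal horn of adult rats was examined on 5 arrays of 2 colours, all those whose titles give injection at P12 and the left side of the cord, of 33 arrays in the series. P12 stands for postnatal day 12. On that day the treated pups received 0.25% carrageenan, a seaweed polysaccharide that inflames tissue locally, at 1 µl per g of body weight under the sole of the left hindpaw. The cord was taken from males at postnatal day 60, so the left dorsal horn is the injected side. On each array this RNA was hybridised, under a different Alexa dye, against that of the left dorsal horn of control rats, and no array with exchanged dyes is named. Without such arrays, a dye effect on a probe and a difference between the tissues cannot be told apart in a mean against 0. The comparison groups used here are the 5 arrays of the right dorsal horn and the 5 of brain from rats injected at P12, and the left dorsal horn after injection at postnatal day 3 (P3), each set against control tissue in the same way. The sources used here do not give the strain, the number of rats behind each RNA sample or what the control pups received. The study also took tissue during a second inflammation of the same paw in the adult, caused by complete Freund's adjuvant, and the arrays' labels leave unsaid which of them it concerns.

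The dorsal horn holds the first synapses of the pain pathway in the cord. Pain-sensing nerve fibres release glutamate there, together with peptides such as substance P and CGRP (calcitonin gene-related peptide). Local neurons that use GABA, opioid peptides and noradrenaline and serotonin arriving from the brainstem all adjust what is passed on, and neurotrophins and cytokines alter the strength of these synapses after inflammation. The arrays carried 232 probes, many of them for genes of these systems. Of the 232, 205 have 1 gene symbol each (158 symbols) and 27 are unnamed here. Every value below is a log ratio of the channels as deposited, read as log2, and signs are given as deposited because the tables do not state which channel is on top. A positive value is therefore not read here as more or less RNA in treated tissue. A ratio gives no level, and in bulk tissue fewer cells of a type and less RNA per cell cannot be told apart. The labelled tissue could not be checked, since 0 named probes belong to the neuronal, glial or blood cell markers listed for that purpose.

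The 5 left arrays did not resemble each other equally. Arrays 1, 2 and 3 correlated with each other at Pearson's r of 0.42 to 0.46 over the 232 probes, whereas the 7 pairs with array 4 or 5 lay between 0.018 and 0.18. Arrays 1, 2 and 3 had mean r of 0.38 to 0.43 with the right dorsal horn, and arrays 4 and 5 had 0.099 and 0.096. Within single arrays the log ratios had an SD of 0.78 on array 4 and 0.89 to 1.2 on the others, and array medians lay between 0 and 0.0095. Exact values of 0 numbered 3 to 11 per array, while other steps of 0.001 within 0.01 of 0 held at most 0.30 values on average. Some values below are therefore also given without arrays 4 and 5. These 2 were picked for their low correlation, a choice that favours agreement among the arrays left.

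**Figure D1:**
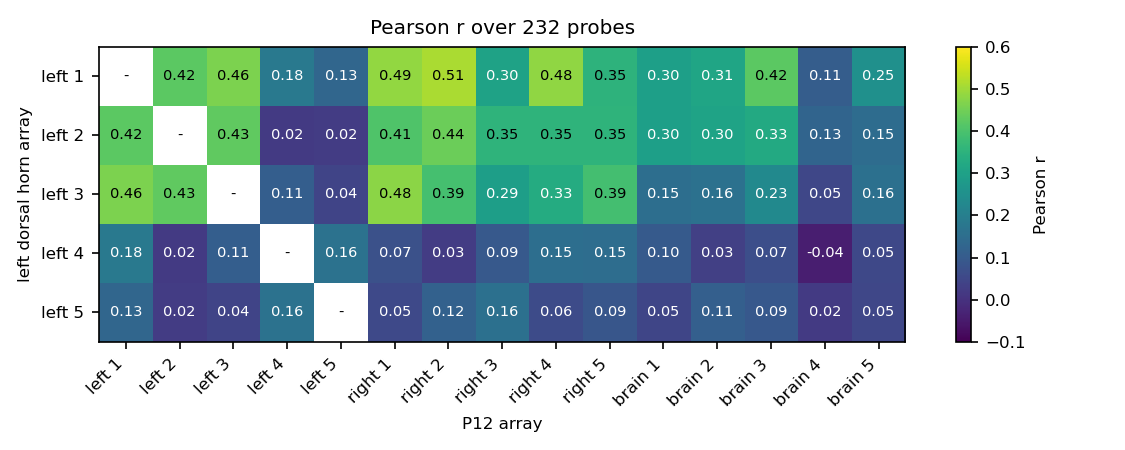
Pearson correlation over 232 probes between each left dorsal horn array (rows) and every P12 array (columns: left and right dorsal horn, brain; colour scale from -0.1 to 0.6). Left arrays 1, 2 and 3 correlate with each other at 0.42 to 0.46, and the rows of arrays 4 and 5 lie at 0.18 or lower.

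No probe passed in the left dorsal horn. Tested against 0 over the 5 arrays with limma, 0 of 232 probes had an adjusted p under 0.05 (0%), and the lowest adjusted p was 0.257. At an unadjusted p under 0.05 there were 29 probes (12.5%), 10 with positive means (4.31%) and 19 with negative means (8.19%), where chance gives 11.6. The fit without moderation of the variance also gave 0 calls, with 25 probes at an unadjusted p under 0.05. Robust regression called 1 probe, Grik4. Of all 232 means, 110 were positive and 122 negative, and 19 probes (8.19%) were positive and 16 (6.90%) negative on every array. With 3 arrays in place of 5 (without arrays 4 and 5), 12 probes passed, 1 positive and 11 negative. In 1 fit with right dorsal horn and brain, where the 15 arrays share an estimate of the spread, 12 passed, 2 positive and 10 negative. The median SD of a probe was 0.63 in the left dorsal horn, 0.51 in the right and 0.40 in brain. The shared estimate thus draws on groups of smaller spread, and its calls do not rest on the left arrays alone. Called both in the fit of 15 arrays and without arrays 4 and 5 were 6 probes. They were those of Gabra4, Il2rb, Cxcr1 and Ntf3, probe 33 of Adra2a and probe 37 of Gabbr1, all with negative means. Both fits hold left arrays 1, 2 and 3, so being called in both is not a separate line of support. The fit of 15 arrays also called Tacr3 (probe 157), Cckbr, Nts (probe 185) and Npy1r, with negative means, and Il12a and Vip, with positive means. The shares over all probes, 12.5% at an unadjusted p under 0.05 and 52.6% with negative means, are those to set beside the counts of each gene list. Of the 15 named probes with the lowest p, Adra2a (probe 33), Ntf3, Gabra4 and Cxcr1 passed without arrays 4 and 5. For the rest, the limma adjusted p in that setting ran from 0.0719 (Gabbr1 probe 35) to 0.509 (Grin2d probe 169). The values of these 15 probes follow, ordered by what their genes do.

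**Figure D2:**
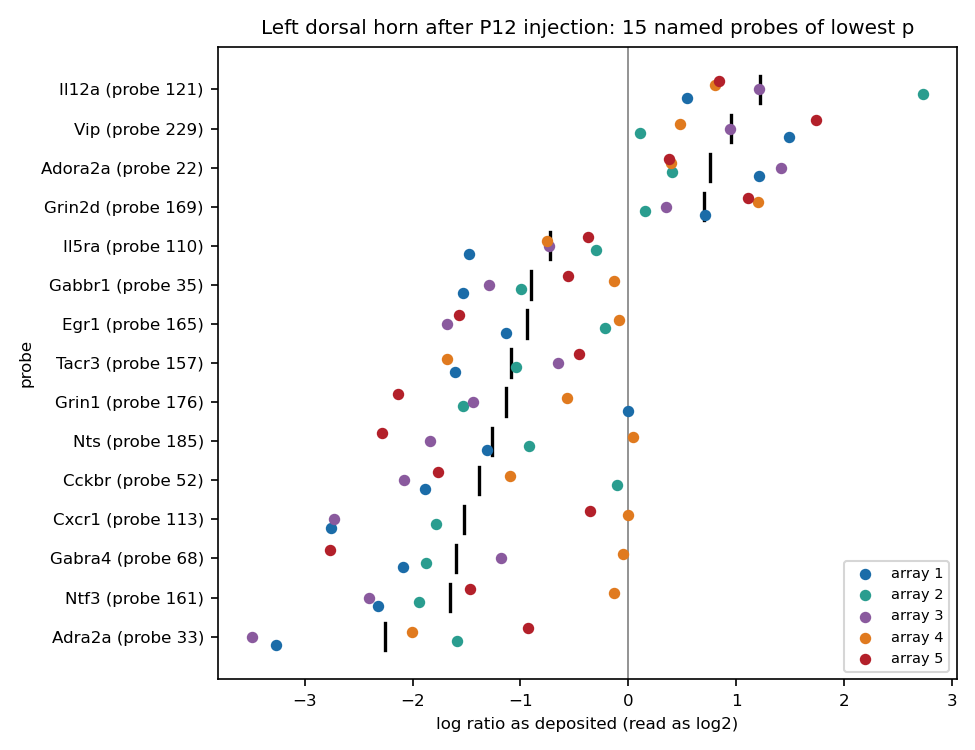
Log ratio as deposited (x axis, read as log2) of the 15 named probes with the lowest p against 0, 1 point per array (colours) and the mean of 5 arrays as a black bar. Adra2a lies lowest, at a mean of -2.26, Il12a highest, at 1.23, and array 4 is the point nearest 0 for Ntf3, Gabra4 and Cxcr1.

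Adra2a encodes the alpha-2A adrenergic receptor, through which noradrenaline from the brainstem dampens pain transmission in the dorsal horn. Probe 33 of this gene had the lowest p and the most negative mean of the 232. Its log ratios on arrays 1 to 5 were -3.27, -1.59, -3.49, -2.01 and -0.93. All were negative, lowest on arrays 1 and 3 and nearest to 0 on array 5. The mean was -2.26 ± 1.10 (SD, n = 5), with a limma adjusted p of 0.257. It was -2.78 without arrays 4 and 5 (adjusted p = 0.0361), and the adjusted p was 0.00806 in the fit of 15 arrays. The other 2 probes of Adra2a did not share this: probe 26 lay at 0.0058 ± 1.02, from -1.74 on array 4 to 0.74 on array 5, and probe 32 at 0.30 ± 0.48. Averaged over its 3 probes, the gene had a mean of -0.65. On probe 33 the right dorsal horn lay at -1.56 ± 0.73 and brain at -1.44 ± 1.08, so all 3 tissues had negative means. Among the other adrenergic probes, Adra1b had -0.79 ± 0.98 and Adra1a 0.50 ± 0.55. Slc6a2, the noradrenaline transporter, had the highest mean of the list, 1.16 ± 1.59 on probe 207, with 3.95 on array 4 and at most 0.92 on the others. Its second probe (208) had a mean of -0.0024 ± 0.88. In all, 6 of the 11 adrenergic probes had positive means and 5 negative, with a median of 0.0058 against -0.031 for all probes.

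Ntf3 encodes neurotrophin-3, a growth factor for sensory neurons, and is measured by 1 probe. Its log ratios on arrays 1 to 5 were -2.32, -1.94, -2.41, -0.13 and -1.46. All 5 were negative, and array 4 stood nearest to 0. The mean was -1.65 ± 0.93 (SD, n = 5; limma adjusted p = 0.257), and -2.22 without arrays 4 and 5 (adjusted p = 0.0309). The rest of the neurotrophin list lay closer to 0. Bdnf, brain-derived neurotrophic factor, which sensory fibres release into the dorsal horn, had 0.070 ± 0.14 with values from -0.07 to 0.28. Its receptor Ntrk2 had -0.12 ± 0.36, and the neurotrophin-3 receptor Ntrk3 had -0.17 ± 1.45 and -0.28 ± 0.79 on its 2 probes. Ntf4 had -0.83 ± 1.39, with -2.96 on array 5 and 0.91 on array 3, and Ngfr, the low-affinity neurotrophin receptor, had the highest mean, 0.24 ± 0.63. Of the 7 probes, 2 had positive means and 5 negative, and Ntf3 was the 1 at an unadjusted p under 0.05.

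Tachykinins are the peptides of the substance P family. Their list had the lowest median of the lists with 3 or more probes, -0.74. Of its 7 means 6 were negative, where 122 of 232 (52.6%) were negative over all probes. The 7 probes measure only 3 genes, with 4 probes on 1 entry of Tac1 and 2 on 1 entry of Tacr3. Tacr3, the receptor for neurokinin B, had log ratios of -1.61, -1.04, -0.65, -1.68 and -0.46 on arrays 1 to 5 of probe 157. These were negative throughout, with arrays 1 and 4 lowest. The mean was -1.09 ± 0.55 (SD, n = 5; limma adjusted p = 0.257), and its second probe (158) had -0.89 ± 0.82, with 1 array above 0. The receptor thus had negative means on both probes. Tac1, which encodes the precursor of substance P, had means of -0.97 ± 1.17 (probe 79), -0.74 ± 0.81 (probe 56), -0.18 ± 0.71 (probe 221) and 0.019 ± 0.61 (probe 27). The lowest single value of Tac1 was -2.40, on array 3 of probe 79. Tacr2, the neurokinin A receptor, had -0.71 ± 0.76. The Tacr3 probes were the 2 at an unadjusted p under 0.05. Without arrays 4 and 5 all 7 tachykinin probes had negative means and the median was -0.98, while 111 of the 232 probes were negative. The medians of the same probes were -0.029 in the right dorsal horn and 0.080 in brain.

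Other peptide systems gave single probes of low p. Cckbr, the cholecystokinin receptor of the brain and cord, had log ratios of -1.89, -0.10, -2.08, -1.10 and -1.76, a mean of -1.39 ± 0.81 (SD, n = 5) and a limma adjusted p of 0.257. Array 2 lay near 0 and the other 4 at -1.10 or lower. The peptide itself, Cck, had -0.098 ± 0.25. Vip, vasoactive intestinal peptide, had 1.49, 0.105, 0.94, 0.48 and 1.74, all above 0 and lowest on array 2. Its mean was 0.95 ± 0.68 with an adjusted p of 0.280, and 0.85 without arrays 4 and 5 (limma adjusted p = 0.33). Its receptor Vipr1 had -0.029 ± 0.46, and Vipr2 had -0.52 ± 0.40 and 0.34 ± 0.50 on its 2 probes. The receptor probes thus lay on both sides of 0.

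Nts encodes neurotensin, a peptide with pain-relieving action in the cord. Its probe 185 had log ratios of -1.31, -0.92, -1.83, 0.04 and -2.28, with array 4 alone above 0. The mean was -1.26 ± 0.89 (SD, n = 5) and the adjusted p 0.275. Probe 184 had a mean of -0.77 ± 1.67 that came from -3.63 on array 3 and was -0.055 without it, and probe 186 had 0.32 ± 0.32. The receptors Ntsr1 and Ntsr2 had -0.22 ± 0.36 and -0.31 ± 0.16, the latter negative on all 5 arrays. In the neuropeptide Y list, Npy1r, a receptor through which neuropeptide Y inhibits dorsal horn neurons, had the lowest mean, -1.31 ± 1.27, with values from -3.27 on array 5 to -0.06 on array 4. Its ligand Npy had 0.16 ± 0.86, and PPYR1, on a human sequence entry, had the highest mean, 0.73 ± 0.87. In the somatostatin list of 9 probes, 6 means were positive and 3 negative, around a median of 0.26. The peptide gene Sst had -0.39 ± 0.64, while the highest and lowest means were those of the 2 probes of the receptor Sstr2, 1.2 ± 1.74 and -0.43 ± 1.61.

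The opioid list was made of 13 probes for 7 genes, with 10 negative and 3 positive means, a median of -0.16 and 0 probes at an unadjusted p under 0.05. Oprm1, the receptor for morphine and beta-endorphin, had log ratios of -0.92, 0.03, -0.25, -1.14 and -0.17, a mean of -0.49 ± 0.51 (SD, n = 5). The delta receptor Oprd1 had -0.36 ± 0.32 and the kappa receptor Oprk1 -0.16 ± 0.88. Pdyn, the dynorphin precursor, had -0.45, 0.14, -1.10, -0.17 and -0.73, a mean of -0.46 ± 0.49. These receptors and Pdyn had negative means, each with at least 1 array near or above 0. The enkephalin precursor Penk had -0.58 ± 0.83, -0.044 ± 0.32 and 0.76 ± 1.21 on its 3 probes, the lowest and highest means of the list. The 4 probes of Pomc, the beta-endorphin precursor, lay between -0.16 and 0.68. Without arrays 4 and 5 the count of negative means was 7 of 13 and the median -0.10.

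For CGRP, the other main peptide of pain-sensing fibres, 6 of 8 means were positive with a median of 0.22, and 0 probes had an unadjusted p under 0.05. The Calca gene encodes CGRP and calcitonin. Its probe 196 had the highest mean of the list, 0.74 ± 0.80, with 1.12, 1.10 and 1.68 on arrays 2, 4 and 5 and values just below 0 on the other 2. Probes 47 and 48 of the same gene had -0.14 ± 0.60 and -0.080 ± 0.58, and both read exactly 0 on arrays 4 and 5. Calcb, the second CGRP gene, had 0.40 ± 0.56, and the receptor Calcrl 0.18 ± 0.44. Crcp, a CGRP receptor component, had the narrowest range of all 232 probes, from -0.03 to 0.06.

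**Figure D3:**
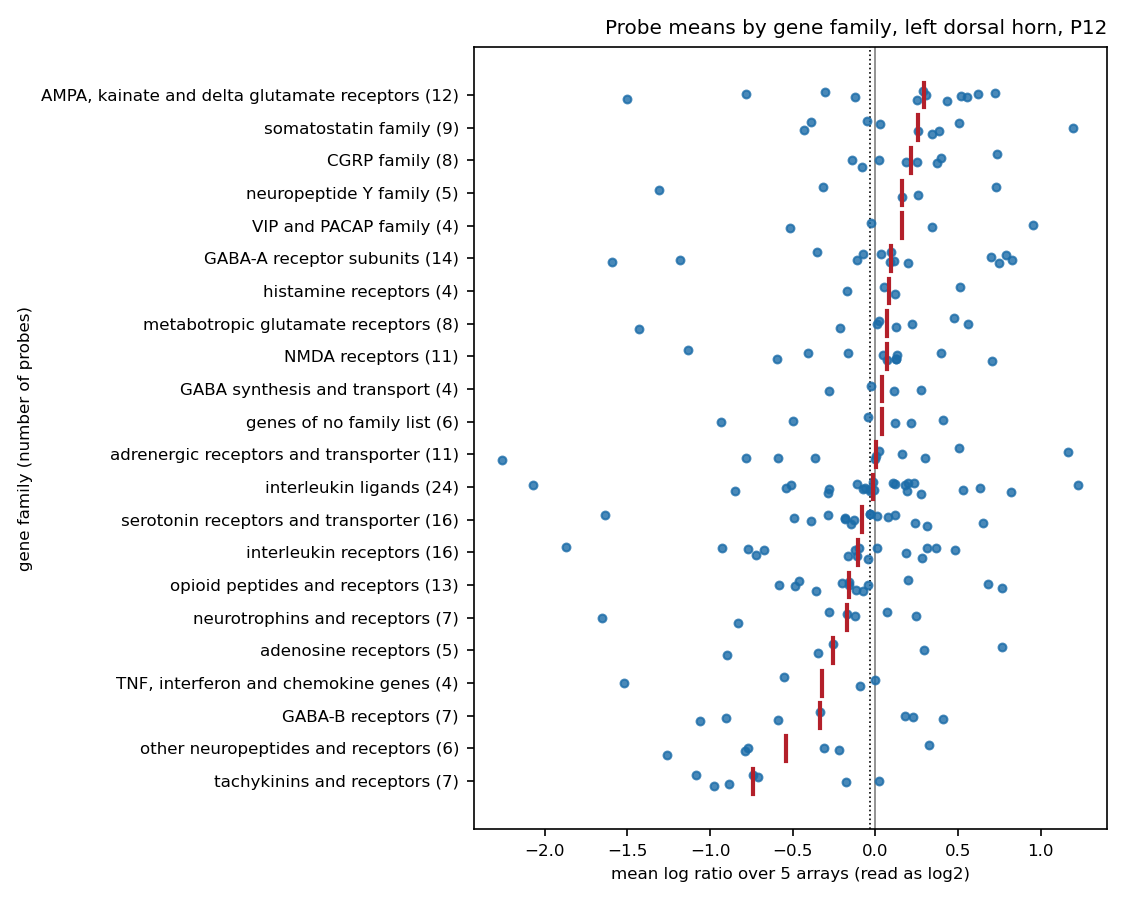
Mean log ratio over 5 arrays (x axis, read as log2) of named probes, 1 row per gene family of 3 or more probes with their number; red bars are family medians and the dotted line the median of all probes, -0.031. Of these rows, that of the tachykinins has the lowest median, -0.74, with 6 of 7 probes below 0, and the rows of the glutamate and GABA receptors spread on both sides of 0.

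GABA is the main inhibitory transmitter of the dorsal horn together with glycine, and the GABA-A receptor is a chloride channel built from subunits. Of 14 GABA-A subunit probes, 9 were positive on average and 5 negative, the median was 0.093, and 3 were at an unadjusted p under 0.05 (12.5% over all probes). Gabra4, the alpha-4 subunit, had the lowest mean, with log ratios of -2.09, -1.88, -1.18, -0.05 and -2.77. All were negative, but array 4 was near 0. Its mean was -1.59 ± 1.03 (SD, n = 5; limma adjusted p = 0.275), and -1.72 without arrays 4 and 5 (adjusted p = 0.0425). Gabra5, the alpha-5 subunit, had -1.49, -1.96 and -2.42 on arrays 1, 2 and 3, and 0 and -0.03 on arrays 4 and 5, a mean of -1.18 ± 1.11. It was thus negative in the arrays that correlated with each other and near 0 in the others. The highest mean was that of Gabrg3, 0.82 ± 0.92, with 1.69, 1.24 and 1.47 on arrays 1 to 3 and -0.48 and 0.21 on arrays 4 and 5, the same split with the opposite sign. The rho-1 subunit Gabrr1 had 0.75 ± 0.72 and was positive on every array.

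The GABA-B receptor is the slow, G-protein-coupled receptor for GABA. All 7 of its probes measure the subunit Gabbr1, and their means ran from -1.06 to 0.41. Probe 35 had log ratios of -1.53, -0.99, -1.29, -0.13 and -0.56, a mean of -0.90 ± 0.56 (SD, n = 5) and an adjusted p of 0.275. Probe 37 had -1.06 ± 0.93, with -2.07 on array 3 and 0.21 on array 4. Probe 37 was the one called in the fit of 15 arrays and without arrays 4 and 5, and probe 35 was called in neither. Probes 34 and 76 also had negative means, -0.34 ± 0.24 and -0.59 ± 0.71, whereas probes 36, 38 and 224 had 0.18 ± 0.51, 0.23 ± 0.94 and 0.41 ± 0.56. Of the genes that make and move GABA, Gad1 was positive on all 5 arrays, from 0.03 to 0.48, with a mean of 0.28 ± 0.19. Gad2, the other GABA-making enzyme, had -0.28 ± 0.97, with -1.60 on array 3 and 0.67 on array 4, and none of the 4 probes had an unadjusted p under 0.05.

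Glutamate receptors of the AMPA and kainate type carry fast excitation. Of 12 probes for them and related receptors, 8 had a mean above 0 and 4 below it, the median was 0.30, and 2 had an unadjusted p under 0.05. Of these, Gria3, an AMPA receptor subunit, had the highest mean, 0.72 ± 0.61, with 4 positive arrays and -0.12 on array 4. The kainate receptor subunit Grik4 had the lowest, -1.50 ± 1.51, with values from -3.27 to -1.55 on arrays 1, 2, 3 and 5 and 0.91 on array 4. Robust regression, which gives less weight to a value far from the rest, called Grik4 negative. The kainate subunit Grik5 had -0.78 ± 2.29, from -4.62 on array 3 to 1.45 on array 1, and the AMPA subunit Gria1 had 0.62 ± 1.81, from -2.04 to 2.87. These 2 had some of the widest ranges on the array.

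NMDA receptors, which contribute to the lasting increase of pain signals in the cord, had 7 positive and 4 negative means on 11 probes, and a median of 0.070. Grin2d, a receptor subunit, had log ratios of 0.71, 0.15, 0.35, 1.21 and 1.11 on probe 169. These were all positive, with arrays 4 and 5 highest, and the mean was 0.71 ± 0.46 (SD, n = 5) with a limma adjusted p of 0.280. Without arrays 4 and 5 the mean was 0.40 (adjusted p = 0.509). The other Grin2d probe (173) lay at 0.12 ± 0.16. Grin1, the subunit that every NMDA receptor contains, had 0, -1.53, -1.44, -0.56 and -2.13 on probe 176, none above 0. Its mean there was -1.13 ± 0.85 with an adjusted p of 0.280, the lowest of the list. The other 3 Grin1 probes, each from its own sequence entry, had means of 0.045 ± 0.86, 0.39 ± 0.73 and -0.17 ± 1.18. The gene thus had 1 probe with no array above 0 and 3 whose arrays lay on both sides of 0. Grin2b, the main partner subunit in pain studies, had values from -0.07 to 0.04 on arrays 1 to 4 and 0.46 on array 5, a mean of 0.070 ± 0.22.

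Metabotropic glutamate receptors, which tune transmitter release and excitability, had 6 positive and 2 negative means on 8 probes. Grm8 was positive on every array, from 0.20 to 0.82, with a mean of 0.47 ± 0.27 (SD, n = 5), and was the 1 at an unadjusted p under 0.05. Grm7 had the highest mean, 0.56 ± 1.51, and Grm4 the lowest, -1.43 ± 2.03 on probe 150. The latter came from -4.98 on array 4 and was -0.55 without that array, and the second Grm4 probe had 0.0062 ± 0.41. Of the 2 glutamate transporter probes, Slc1a1 had a mean of 1.21 ± 1.31, with 2.92 on array 5 and -0.45 on array 4, and Slc1a6 had -0.21 ± 0.51.

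Serotonin from the brainstem acts on many receptor types in the cord. Of 16 probes, 6 had a mean above 0 and 10 below it, the median was -0.083, and 0 were at an unadjusted p under 0.05. Htr2c had the lowest mean, -1.64 ± 2.12, with -3.81, -1.89 and -3.56 on arrays 1, 2 and 3 and 0.33 and 0.75 on arrays 4 and 5. Arrays 1 to 3 again lay apart from arrays 4 and 5, and Htr2c was among the probes called without arrays 4 and 5. Htr1b had the highest mean, 0.65 ± 0.88, with 2.15 on array 4. Htr2b was negative on all 5 arrays within a narrow range, -0.29 to -0.01. Of the histamine receptors, Hrh1 had 0.51 ± 0.49 and was positive on every array, Hrh3 stayed between -0.04 and 0.13, and Hrh4 had -0.17 ± 1.57. Adora2a, a receptor for adenosine, had log ratios of 1.22, 0.41, 1.42, 0.40 and 0.38 on probe 22, all positive and highest on arrays 1 and 3. The mean was 0.76 ± 0.51 (SD, n = 5; limma adjusted p = 0.280), and its second probe (23) had 0.29 ± 0.36, also positive throughout. Adora3 had the lowest mean of the adenosine receptors, -0.90 ± 1.45, with -3.10 on array 5 and -1.13 to 0.93 on the others.

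Among cytokines, Il12a, the p35 subunit of interleukin-12, had the highest mean of all 232 probes. Its log ratios on arrays 1 to 5 were 0.54, 2.73, 1.21, 0.81 and 0.84. All were positive and array 2 stood highest. The mean was 1.23 ± 0.88 (SD, n = 5), the limma adjusted p 0.275, and the mean without arrays 4 and 5 was 1.5 (adjusted p = 0.197). A probe on the human entry of this gene, IL12A, had -0.076 ± 0.54. The lowest interleukin was Il23a, with -2.45, -5.08, -3.90, -0.70 and 1.77 and a mean of -2.07 ± 2.70, the widest range on the array. Il2, a growth factor for T cells, had 0.82 ± 0.76, below 0 on array 1. The inflammatory cytokines Il1b and Il6 had 0.19 ± 0.65, from -0.63 to 1.12, and -0.018 ± 0.58, from -0.60 to 0.69, so both lay on either side of 0. Of the 24 interleukin probes, 11 had a mean above 0 and 13 below it, the median was -0.014, and 2 were at an unadjusted p under 0.05.

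Cytokine receptors had 10 negative and 6 positive means on 16 interleukin receptor probes, with a median of -0.10 (52.6% of all 232 means were negative). The 3 at an unadjusted p under 0.05 were negative, as were 19 of the 29 such probes on the whole array (12.5%). Il2rb, a chain of the interleukin-2 and interleukin-15 receptors, had the lowest mean. Its log ratios were -2.85, -2.75, -3.71, -0.12 and 0.07, with arrays 1 to 3 far below arrays 4 and 5, and the mean was -1.87 ± 1.73 (SD, n = 5). Il5ra, the interleukin-5 receptor chain, had -1.47, -0.30, -0.73, -0.75 and -0.37, all negative. Its mean was -0.72 ± 0.47 with an adjusted p of 0.280. Il2rg, the chain shared by several interleukin receptors, had -0.93 ± 1.00, negative on every array, with -2.64 on array 3. Il2ra, by contrast, was positive on every array, from 0.16 to 0.51, with a mean of 0.37 ± 0.15. The highest mean belonged to probe 112 of Il7r, 0.48 ± 0.98, while probe 136, on the same mouse entry, had 0.011 ± 0.13.

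Cxcr1 is a chemokine receptor best known from neutrophils. It had log ratios of -2.75, -1.78, -2.73, 0 and -0.35, so arrays 4 and 5 again lay nearest to 0. The mean was -1.52 ± 1.30 (SD, n = 5), the adjusted p 0.282, and the mean without those 2 arrays was -2.42 (adjusted p = 0.0309). The 3 probes of the related receptor Cxcr2 had -0.56 ± 0.55, -0.096 ± 0.27 and -0.0018 ± 0.62. Egr1, an activity-induced transcription factor that belongs to no family here, had -1.13, -0.22, -1.68, -0.09 and -1.57. All were negative, with arrays 2 and 4 near 0, and the mean was -0.94 ± 0.75 with an adjusted p of 0.286. Vgf, a neurotrophin-induced peptide precursor, had -0.50 ± 0.85.

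A panel of 15 genes with known roles in pain was covered by 31 probes. Their means were positive for 12 and negative for 19, where 110 of all 232 were positive and 122 negative, and their median was -0.14. An unadjusted p under 0.05 was found for 3 of the 31 (12.5% over all probes), the Grin1 probe 176 and the Gabbr1 probes 35 and 37. No panel probe was positive on every array. The Gabbr1 probes 34 and 35 and the Oprd1 probe were negative on every array.

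Probes of one gene often disagreed. For 30 genes with several probes, the means of 37 of 77 probe pairs had the same sign (48.0%), against 49.9% over all 26796 pairs of probes on the array. Where both probes came from the same sequence entry the count was 21 of 42 pairs (50%). The median gap between the means of a pair was 0.56, against 0.50 over all pairs, and 16 of the 30 genes had means on both sides of 0. Among the genes of low p, the probes of Tacr3, Adora2a and Grin2d had means of one sign, and those of Adra2a, Gabbr1, Grin1 and Nts had means of both. Il12a (1.23) and the human-entry probe IL12A (-0.076) also differed in sign, but were counted as separate symbols in these figures. Each value here is therefore that of its probe.

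**Figure D4:**
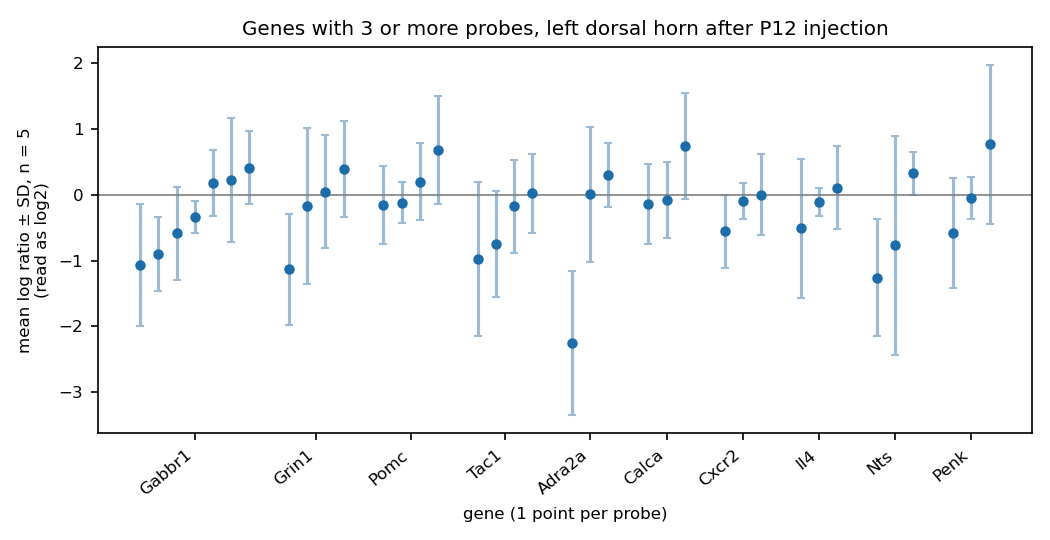
Mean log ratio ± SD over 5 arrays (y axis, read as log2) of every probe of the 10 genes with 3 or more probes, 1 point per probe, ordered by mean within a gene. The 7 Gabbr1 probes run from -1.06 to 0.41, and 1 Adra2a probe at -2.26 stands apart from its other 2 at 0.0058 and 0.30.

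The right dorsal horn, on the side of the paw that was not injected, was compared with the left probe by probe. With limma, left and right differed at 0 of 232 probes (0%), with 19 (8.19%) at an unadjusted p under 0.05, and robust regression called 6. The groups did not overlap at 2 probes (0.862%), Adra1d and an unnamed probe. For Adra1d, an alpha-1 adrenergic receptor, left values ran from 0.01 to 0.60 and right values from -0.64 to 0, and it was singled out after its values were seen. Vip had the lowest p. Its left mean of 0.95 ± 0.68 stood beside a right mean of -0.023 ± 0.29, where values ran from -0.45 to 0.33. The difference was 0.97 ± 0.28 (SE), and its adjusted p was 0.457. The left and right values of Vip overlapped through left array 2, at 0.105. Tacr2 had means of -0.71 (left) and 0.30 (right), which differ by -1.01 ± 0.33, and the AMPA receptor subunit Gria2 (probe 83) had -0.13 and 1.24, a difference of -1.37 ± 0.47. Il2 was positive on 4 of 5 left arrays and on 0 right arrays, with a difference of 1.18 ± 0.42. Grm4 had -1.43 and 0.75, a difference of -2.18 ± 0.78 with -4.98 on left array 4. These 4 probes also had a limma adjusted p of 0.457.

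The low-p probes with negative left means had these values on the right. Ntf3 was at -2.58 ± 0.49 on the right, Gabra4 at -1.46, Cckbr at -1.52, Cxcr1 at -2.05, Grin1 (probe 176) at -2.02 and Gabbr1 (probe 35) at -1.69, while Adra2a (probe 33) was at -1.56, Il5ra at -1.16, Egr1 at -1.10, Nts (probe 185) at -0.92 and Tacr3 (probe 157) at -0.44. For each of these probes the left and right values overlapped. Of the 4 low-p probes that were positive on all left arrays, Adora2a (probe 22) and Il12a were also positive on all 5 right arrays, with right means of 0.51 ± 0.61 and 0.44 ± 0.51. Vip and Grin2d (probe 169) had right means of -0.023 ± 0.29 and -0.086 ± 0.72, each positive on 3 of 5 arrays.

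Brain was compared with the left dorsal horn in the same way. With limma, left dorsal horn and brain differed at 0 of 232 probes (0%), with 23 (9.91%) at an unadjusted p under 0.05. Robust regression called 18, and leaving out 1 array at a time gave 0 to 3 calls: 1 without left array 4, which was Ntf3 (a difference of -2.55, adjusted p = 0.00658), and 3 without brain array 4, which were Grin2d (probe 173) and 2 unnamed probes. Ntf3 had 0.51 ± 0.86 in brain, where values ran from -0.23 to 1.98, and its difference of -2.17 ± 0.47 (SE) had the lowest p, with an adjusted p of 0.0849. With only the 10 left and brain arrays in the limma fit, 0 probes passed and the lowest adjusted p was 0.346. The left and brain values of Ntf3 overlapped through left array 4. Tacr3 (probe 157) had -0.016 ± 0.35 in brain, a difference of -1.07 ± 0.28 (adjusted p = 0.189). The second Tacr3 probe (158), on the same sequence entry, had -1.17 ± 0.65 in brain, with 0 arrays above 0. Its difference was 0.28 ± 0.38 (adjusted p = 0.896), of the opposite sign. Penk (probe 200) had 0.83 ± 0.53 in brain, all 5 arrays above 0, a difference of -1.41 ± 0.40 (adjusted p = 0.193) that turned to 0.097 (adjusted p = 0.977) with the 3 Penk probes averaged. Vip had 0.016 ± 0.11 in brain, a difference of 0.94 ± 0.28 (adjusted p = 0.219), and Il2rg 0.36 ± 0.39, a difference of -1.29 ± 0.42 (adjusted p = 0.249). The groups did not overlap at 4 probes (1.72%): Tacr3 (probe 157), Il2rg, Il12a and an unnamed probe. The 3 P12 groups were all read against control tissue, and the sources used here do not say whether they share control rats.

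**Figure D5:**
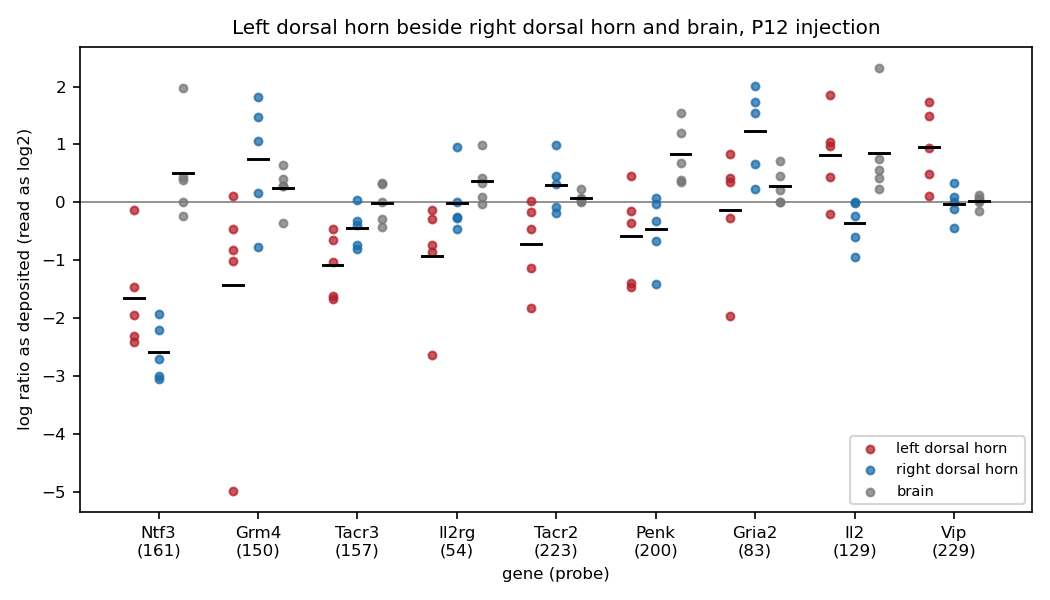
Log ratio as deposited (y axis, read as log2) of the named probes with the lowest p for left against right dorsal horn or left dorsal horn against brain, 1 point per array and the mean as a black bar. Vip is above 0 on all 5 left arrays and lies within 0.45 of 0 in the right dorsal horn and brain. Left array 2 of Vip, at 0.105, overlaps both. Ntf3 is low in both sides of the cord and not in brain.

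After injection at P3, the left dorsal horn was measured on another platform in a table of its own, so age and platform cannot be told apart and no test was made. The probe on the sequence entry of Adra2a probe 33 had 0.041 ± 0.11 (SD, n = 5) at P3, against -2.26 ± 1.10 at P12. Ntf3 had 0.046 ± 0.22 against -1.65 ± 0.93, Cckbr 0.087 ± 0.14 against -1.39 ± 0.81, and Gabra4 -0.028 ± 0.061 against -1.59 ± 1.03. These probes were picked for their low p at P12, and values nearer to 0 in another set of arrays carry no further weight. Vip had 0.086 ± 0.17 against 0.95 ± 0.68, and Cxcr1 -0.27 ± 0.35 against -1.52 ± 1.30. Egr1 had -0.36 ± 1.29 against -0.94 ± 0.75, Grin1 (probe 176) -0.046 ± 0.13 against -1.13 ± 0.85, Il5ra 0.074 ± 0.45 against -0.72 ± 0.47 and Adora2a (probe 22) -0.20 ± 0.32 against 0.76 ± 0.51. Il12a had positive means at both ages, 0.61 ± 0.78 and 1.23 ± 0.88. Where an entry has several probes, their average was used. Tacr3 then had 0.12 ± 0.11 against -0.99 ± 0.53, and Nts 0.045 ± 0.082 against -0.57 ± 0.61. Grin2d had 0.059 ± 0.13 against 0.41 ± 0.22. The Gabbr1 entry of probe 35 had negative means at both ages, -0.23 ± 0.10 and -0.38 ± 0.38. Over all 178 sequence entries found on both platforms, 93 had means of the same sign at both ages. The P3 group has 6 arrays, of which 2 that correlated at r = 0.969 were averaged and counted as 1 sample.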

How the data were processed

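RNA of 33 samples was measured on custom arrays; the 5 of the P12 left dorsal horn are reported. The authors deposited 1 table of log ratios of the 2 channels per age, read here as log2, and the sources used here do not give their base, direction, background correction or normalization. The largest left value, 5.08, is a ratio of 33.9 in base 2; in base 10 the largest of the series would lie beyond the 65535 levels that 16-bit scans hold, while natural logs remain possible. Tests do not depend on the base. Per the labels' protocols, RNA was isolated with TRIzol and labelled with a 3DNA kit.

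Array annotation named the probes; 195 Entrez identifiers were found in the rat gene table (0 symbols changed), and 10 probes kept the array's name. Each probe's mean was compared with 0 in R 4.3.3 by limma 3.58.1 (lmFit, eBayes, two-sided, Benjamini-Hochberg over 232 probes, threshold 0.05), and left minus right or brain in 1 fit of 15 arrays. The scripts were tested on simulated data. An exact sign-flip test of 5 arrays cannot go below p = 0.0625. The labels do not tie arrays to separate animals, and p-values then reflect only the spread between these samples, which may be technical. The number of arrays limits precision.

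The arrays, lists and tests were chosen with earlier results of these data known; the adenosine list was added after the data were seen. Named were the 15 probes with the lowest p, the 5 with the lowest p in each difference, all probes of a pain panel, the highest and lowest of each list with 3 or more probes, the 5 widest and 5 narrowest ranges, and the other probes of genes in the first set. Other named genes were chosen after their values were seen. After each group's probe means were subtracted, same-numbered arrays correlated at -0.093 to 0.14 (left and right) and -0.023 to 0.16 (left and brain). Left arrays 2 and 4 matched best with their own number in both tissues, and arrays 1, 3 and 5 in neither. Numbers were therefore not taken to pair samples.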

Additional observations from a re-analysis of the deposited data

Results flagged for a closer look

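In 87 groups of 5 values, the extreme value was set against the nearest of the others by Dixon's criterion (critical value 0.71), which chance passes in about 1 in 20 groups; over all 232 probes it picked 26 (11.2%). Each flag below comes from the value of 1 array. Il2rg was nonetheless negative, and Slc6a2 (probe 207) positive, on every array. Grm4 (probe 150), a metabotropic glutamate receptor, had -4.98 on array 4 against -1.01 to 0.11 on the others, and a mean of -0.55 without it. Nts (probe 184), neurotensin, had -3.63 on array 3 against -0.51 to 0.75. Il2rg (probe 54), the shared interleukin receptor chain, had -2.64 on array 3 against -0.86 to -0.13, and a mean of -0.50 without it. Sstr2 (probe 217), a somatostatin receptor, had -3.24 on array 5 against -0.10 to 0.78. Slc6a2 (probe 207), the noradrenaline transporter, had 3.95 on array 4 against 0.02 to 0.92. Grin2b (probe 171), an NMDA receptor subunit, had 0.46 on array 5 against -0.07 to 0.04. Array 2 held 3 exact zeros against 9 to 11 on the others.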

How the results depend on the processing

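The log base, direction and normalization of the deposited values are unknown, each group has 5 arrays of unstated origin, and signal over background is not given, so dim probes could not be set aside. Against 0, the count of 0 calls became 1 with robust regression, 12 in 1 fit with all 15 P12 arrays and 12 without replicates 4 and 5 together. It stayed at 0 with probes of one symbol averaged, without moderation, with arrays centred or scaled, with array weights, without probes that read exactly 0, with exact 0 taken as missing (added after the data were seen), and without any 1 replicate (0 to 0). For left minus right, robust regression gave 6, and leaving out 1 replicate gave 0 to 0. For left minus brain, robust regression gave 18, and leaving out 1 replicate gave 0 to 3. Both differences kept 0 calls with only the 10 arrays compared, where the lowest limma adjusted p was 0.741 (right) and 0.346 (brain). With the replicate number as a block, both differences had 0 calls, as without it. The numbers were not taken to pair the samples. Penk (probe 200, left minus brain) turned from -1.41 to 0.097 when the probes of the gene were averaged, which brings in its other 2 probes. For the other changes the cause was not tested.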

Other observations

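Some probes of one gene followed each other array by array where others did not. Probes 47 and 48 of Calca, the CGRP gene, had -1.12 and -1.04 on array 1, 0.53 and 0.56 on array 2, -0.11 and 0.08 on array 3, and exactly 0 on arrays 4 and 5, while probe 196 had 1.10 and 1.68 on those 2 arrays. Exact zeros made up 43 of the 1160 left values. What an exact 0 stands for in the deposited tables is not given in the sources used here.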
